A study of Mus musculus with 6 samples.

Results

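The Egr and Nr4a transcription factor genes and the Nab genes, whose products hold EGR proteins in check, were followed in mouse samples. The samples are described as endothelial cells that had moved into Matrigel plugs with or without the secreted microfibril protein MFAP5. The 9 genes were Egr1, Egr2, Egr3, Egr4, Nr4a1, Nr4a2, Nr4a3, Nab1 and Nab2. They were taken as every probe set whose platform annotation names 1 of these symbols and no other, which gave 20 of 45037 probe sets and 9 of 18193 genes. All 9 genes had at least 1 probe set, none was lost to a filter on low values because no such filter was applied, and the probe sets of a gene were averaged. The mice were of the Balb/c nude strain, which lacks mature T cells, and the plugs lay in the peritoneal cavity. One group had plugs reconstituted with recombinant MFAP5 and the other, labelled control, had plugs without it. The labels used here give no age, no dose of MFAP5 and no time in the animal. Each group had 3 samples, called independent but not tied to single animals, each on 1 Affymetrix array, so p-values measure the spread between these samples.

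The deposited values were relative log2 signals, centred for each probe set on its median over the 6 arrays. They show differences between arrays and carry no absolute level, so it could not be checked whether a probe set was above background or whether endothelial markers were present at a high level. With 6 arrays the median falls between the middle pair, which therefore carry mirrored values: Egr1 stood at -0.15 in control replicate 1 and at 0.15 in MFAP5 replicate 2. Differences below are MFAP5 minus control on the log2 scale, and a fold assumes that the base of the deposited logarithm is 2. The array medians lay between -0.026 and 0.049. Control replicate 1 stood apart, with a correlation over probe sets of -0.028 with control replicate 2 and 0.020 with control replicate 3, while those 2 arrays correlated at 0.69. The bacterial spike-in signals of these 3 arrays were -0.32, 0.64 and 0.65.

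EGR proteins are zinc-finger factors that bind GC-rich promoter elements. Their genes belong to the immediate early class: growth factors, shear and stress switch them on without new protein synthesis, chiefly through ERK, the ternary complex factors and SRF at CArG boxes. The NR4A proteins are orphan nuclear receptors whose activity depends largely on how much of each is made, and their genes respond to cAMP and calcium through CREB sites. In endothelial cells both families are known as targets of vascular endothelial growth factor. NAB1 and NAB2 bind EGR1, EGR2 and EGR3 and repress through them, and Nab2 is itself an EGR target, which closes a feedback loop.

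Start-site sequences were looked up to show which of these elements lie beside the genes. RefSeq windows (GRCm38.p6) from 250 bases before to 50 bases after a start were matched for 7 of the 9 genes: Egr2, Egr4, Nr4a1, Nr4a2, Nr4a3, Nab1 and Nab2. The windows below are those of the Nr4a genes, of Egr2 and of Egr4. Of these only Nr4a1 passed the test described below. Egr1 and Egr3, which also passed it, had no matched window, so the windows do not contrast genes that passed with genes that did not. Each is printed 5′ to 3′ on the gene's strand, and capitals mark the core CREB element TGACG (or CGTCA, its other strand) and the CArG box. Egr2 had 5 windows. The one shown is the third in genomic order, with which the next 2 overlap.
Nr4a1, chr15:101266596-101266895, plus strand: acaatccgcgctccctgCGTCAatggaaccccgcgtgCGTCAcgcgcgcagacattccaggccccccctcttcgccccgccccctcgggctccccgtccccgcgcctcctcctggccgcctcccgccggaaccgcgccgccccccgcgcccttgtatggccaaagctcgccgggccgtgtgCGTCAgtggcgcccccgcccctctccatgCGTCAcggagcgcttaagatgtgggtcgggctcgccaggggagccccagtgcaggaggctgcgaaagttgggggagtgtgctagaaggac
Nr4a2, chr2:57123954-57124253, minus strand: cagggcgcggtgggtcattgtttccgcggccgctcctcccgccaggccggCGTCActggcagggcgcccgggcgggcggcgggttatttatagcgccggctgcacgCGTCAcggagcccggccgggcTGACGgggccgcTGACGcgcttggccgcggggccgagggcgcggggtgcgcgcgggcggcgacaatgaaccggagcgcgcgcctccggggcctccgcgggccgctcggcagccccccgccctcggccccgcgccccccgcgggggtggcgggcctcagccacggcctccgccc
Nr4a3, chr4:48045055-48045354, plus strand: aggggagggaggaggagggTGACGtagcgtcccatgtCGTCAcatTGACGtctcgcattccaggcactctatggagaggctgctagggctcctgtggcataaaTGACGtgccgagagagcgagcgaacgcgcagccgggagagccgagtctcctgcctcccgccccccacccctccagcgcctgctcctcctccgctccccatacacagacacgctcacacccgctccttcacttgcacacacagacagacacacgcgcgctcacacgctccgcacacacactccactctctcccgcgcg
Egr2, chr10:67537619-67537918, plus strand: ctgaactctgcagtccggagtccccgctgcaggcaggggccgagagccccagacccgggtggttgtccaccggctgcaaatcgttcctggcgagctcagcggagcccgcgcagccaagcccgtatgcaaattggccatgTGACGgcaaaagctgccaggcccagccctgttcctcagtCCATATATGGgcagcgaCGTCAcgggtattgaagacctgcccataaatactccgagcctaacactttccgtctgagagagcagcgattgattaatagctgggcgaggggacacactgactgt
Egr4, chr6:85513540-85513839, minus strand: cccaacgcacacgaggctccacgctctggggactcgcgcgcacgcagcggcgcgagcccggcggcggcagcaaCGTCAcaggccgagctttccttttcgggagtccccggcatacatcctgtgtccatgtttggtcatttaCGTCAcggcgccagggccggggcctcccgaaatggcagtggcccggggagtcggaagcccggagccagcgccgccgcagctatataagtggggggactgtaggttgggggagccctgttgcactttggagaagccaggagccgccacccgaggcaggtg

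The 3 Nr4a windows held 4 core CREB elements each, the Egr2 window shown and the Egr4 window 2 each. Of the other Egr2 windows, the first and second held 0 core CREB elements and the overlapping last pair 2 each. Of 32851 such windows in the table, 20.8% held at least 1 of them, and the whole palindrome TGACGTCA, which contains it, was in 1.79% of windows and in none of these. A CArG box, present in 1.63% of all windows, began at position -72 of the Egr2 window, where -1 is the last base before the start, and another at -72 of the second Egr2 window, which is not shown. It was in no window of the Nr4a genes or of Egr4. An EGR site, GCGNGGGCG on either strand, was in 5.55% of windows. It began at -60 in Nr4a1, at -74 in Nr4a2 and at 3 places in Nab1, -141, -109 and -38, and was in no window of Nr4a3, Egr2, Egr4 or Nab2. The NR4A element AAAGGTCA, found in 1.51% of windows, was in none of the windows of these 7 genes. These matches are letters in a short window, and binding was not measured.

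**Figure D1:**
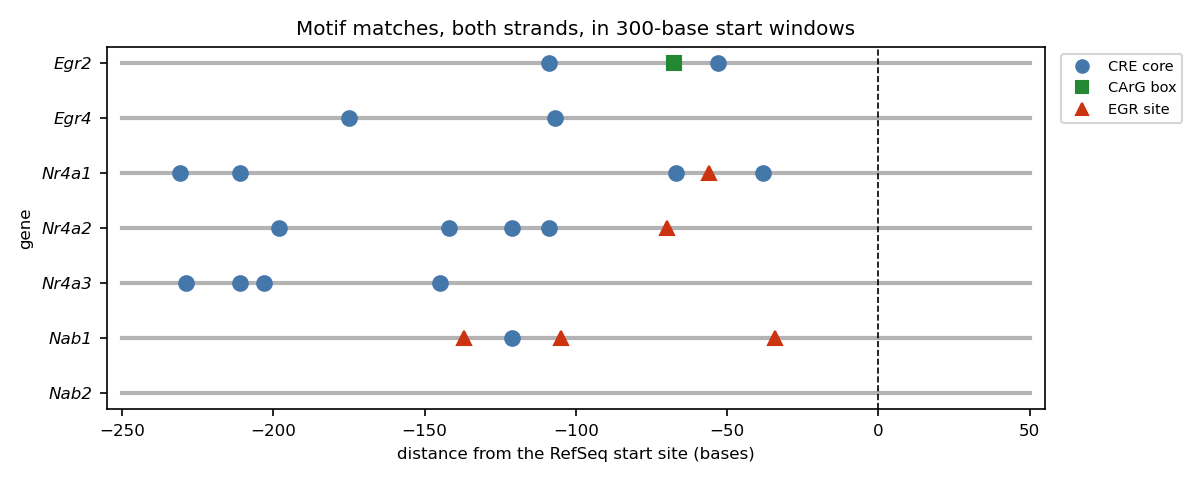
Motif matches on both strands along the windows of 7 genes, with distance from the start site in bases on the x axis and 1 gene per line. For Egr2 only the third window is drawn. Blue circles (CRE core, TGACG) are in each drawn window but that of Nab2. The green square (CArG box) is in that of Egr2, and red triangles (EGR site) are in those of Nr4a1, Nr4a2 and Nab1.

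With MFAP5, 3 of the 9 genes rose: Nr4a1, Egr3 and Egr1. None fell, and 6 did not pass the test; the 3 of these with a negative difference had unadjusted p above 0.05. Over all 18193 genes the same test (limma, Benjamini-Hochberg adjusted p under 0.05) called 0.759% higher and 2.79% lower. The 3 MFAP5 arrays lay above the 3 control arrays without overlap in 6 of the 9 genes, as in 6.51% of all genes, and below them in 0, as in 17.8% of all genes. The median difference of the 9 genes was 0.66, against -0.079 over all genes. Of their 20 probe sets 4 rose and 1 fell (1.56% and 1.72% over all probe sets), 11 lay above the controls without overlap (9.0% over all) and 3 below (14.2%). With the unmoderated statistic none of the 9 genes or 20 probe sets passed. At an unadjusted p under 0.05 that statistic had 4 of the 9 genes higher (3.99% over all genes) and 0 lower (11.5%), and 7 of the 20 probe sets higher (5.43% over all probe sets) and 2 lower (8.85%). In these bulk samples, more cells that express a gene and more RNA in each cell cannot be told apart.

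**Figure D2:**
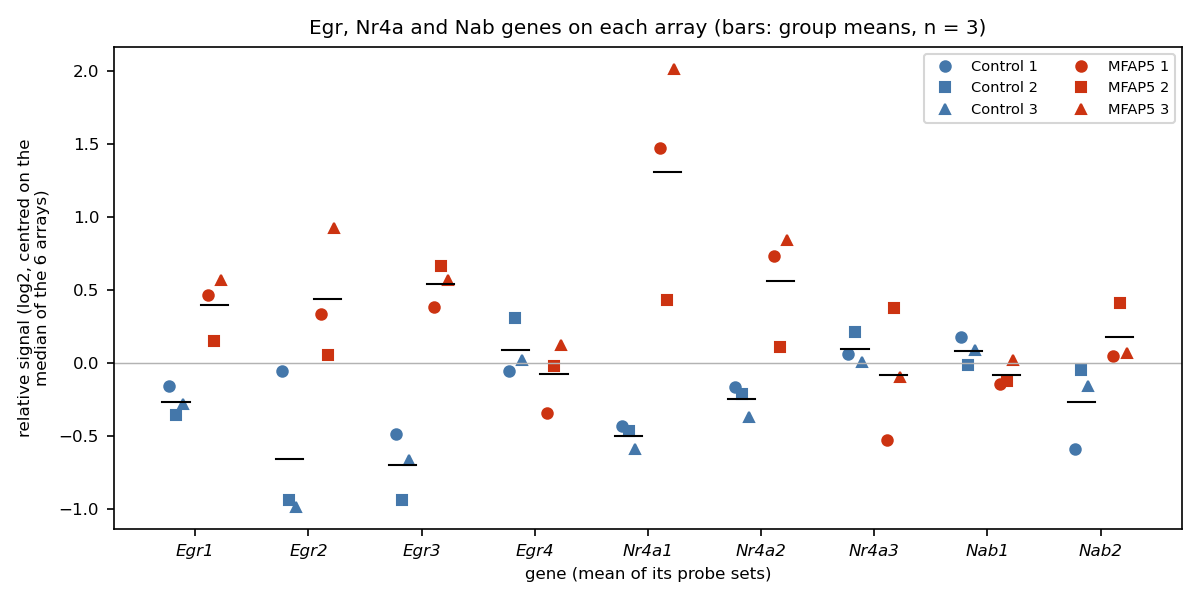
Relative log2 signal (y axis) of the 9 genes (x axis) on the 3 control arrays (blue) and 3 MFAP5 arrays (red), with the replicate number as the marker shape and group means as bars. Red points lie above all blue points for Egr1, Egr2, Egr3, Nr4a1, Nr4a2 and Nab2, and MFAP5 replicate 2 is the lowest red point in 4 of these 6 genes.

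Among the EGR factors, Egr3, which acts downstream of endothelial growth factor signals and in antigen receptor responses, had the smallest p of the 9 genes. Its signal was -0.49, -0.94 and -0.66 in control replicates 1, 2 and 3 and 0.39, 0.67 and 0.57 in MFAP5 replicates 1, 2 and 3. The lowest MFAP5 array lay 0.87 above the highest control array. The difference was 1.24 ± 0.14 (SE, n = 3 per group; limma adjusted p = 0.00230), a fold of 2.36, and Egr3 passed the test whichever array was left out, at differences from 1.12 to 1.34. Its 2 probe sets disagreed in size. The probe set 1436329_at stood at -0.72, -1.58 and -1.32 in the controls and at 0.72, 1.33 and 0.84 with MFAP5, a difference of 2.17 ± 0.24 (adjusted p = 0.00368). The probe set 1421486_at stood at -0.26, -0.30 and -0.0042 and at 0.059, 0.0042 and 0.30, a difference of 0.31 ± 0.14 that did not pass (adjusted p = 0.274). Both probe sets were higher in each MFAP5 array than in any control array, but the margin was 1.43 for the first and 0.0084 for the second.

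Egr1, the factor most often used as a marker of ERK and SRF activity, was measured by 1 probe set. Its signal was -0.15, -0.35 and -0.28 in the controls against 0.47, 0.15 and 0.57 with MFAP5. The groups did not overlap, and MFAP5 replicate 2 was nearest to the controls. Egr1 rose by 0.66 ± 0.13 (SE, n = 3 per group; adjusted p = 0.0309). The difference lay between 0.57 and 0.78 with any 1 array left out, but the call was lost without control replicate 2 (adjusted p = 0.139), control replicate 3 (0.141), MFAP5 replicate 1 (0.110) or MFAP5 replicate 3 (0.0842). It was also lost when the spike-in level entered the model (0.60, adjusted p = 0.103).

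Egr2, known for its part in myelination and in macrophage and T cell responses, had a smaller difference than Egr3 and a wider spread within the groups. Its signal was -0.054, -0.93 and -0.99 in control replicates 1, 2 and 3 and 0.34, 0.054 and 0.92 with MFAP5. Control replicate 1 lay next to MFAP5 replicate 2, far from the other controls. The difference of 1.10 ± 0.29 did not pass the test (adjusted p = 0.0798, 95% interval 0.44 to 1.75). Without control replicate 1 it was 1.40 and passed (adjusted p = 0.0165). Its 2 probe sets gave 1.09 and 1.10, with the same order of arrays within the MFAP5 group.

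Egr4, the family member without the NAB-binding domain of the other three, had signals of -0.055, 0.31 and 0.018 in the controls against -0.34, -0.018 and 0.12 with MFAP5. The groups overlapped. Its difference of -0.17 had a 95% interval of -0.51 to 0.18, and the test was not passed (adjusted p = 0.561). Within each array Egr1, Egr2 and Egr3 could be set against Egr4: the difference of Egr3 minus Egr4 was 1.40 higher with MFAP5, that of Egr2 minus Egr4 1.26 and that of Egr1 minus Egr4 0.83. Each had an exact permutation p = 0.1 (two-sided), the smallest that 3 against 3 arrays can give, and an adjusted p = 0.143 over the 10 pairs compared within the 3 families.

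Among the nuclear receptors, Nr4a1, also known as Nur77 and rapidly induced by growth factors and inflammatory signals, had the largest difference of the 9 genes. Its single probe set stood at -0.43, -0.47 and -0.59 in the controls and at 1.47, 0.43 and 2.01 in MFAP5 replicates 1, 2 and 3. The controls were close together, with an SD of 0.082, and the MFAP5 arrays were spread widely, with an SD of 0.80. Nr4a1 rose by 1.80 ± 0.33 (SE, n = 3 per group; adjusted p = 0.0238), a fold of 3.49 and the 6th largest positive difference of all 18193 genes. Replicate 2 set the lower end: without it the difference was 2.24, and without replicate 3 it was 1.45. The call was lost without control replicate 2 (adjusted p = 0.108), control replicate 3 (0.117) or MFAP5 replicate 1 (0.0857), where the difference stayed between 1.72 and 1.82, and when the variance was allowed to depend on the average centred value (0.532). With the spike-in level in the model Nr4a1 had a difference of 1.77 (adjusted p = 0.107).

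Nr4a2, also called Nurr1 and studied most in dopaminergic neurons and inflamed joints, had 6 probe sets that differed in size and in sign. The gene value was -0.17, -0.21 and -0.37 in the controls against 0.73, 0.11 and 0.84 with MFAP5. The groups did not overlap, and the array order within the MFAP5 group was that of Nr4a1. The difference of 0.81 ± 0.18 narrowly missed the threshold (adjusted p = 0.0539, 95% interval 0.39 to 1.23). It passed in 4 of 16 alternatives: with quantile normalization of the arrays (0.82, adjusted p = 0.0481), with array weights (0.86, adjusted p = 0.0116), without control replicate 1 (0.85, adjusted p = 0.0468) and without MFAP5 replicate 2 (1.03, adjusted p = 0.00547). In the other 12 it did not pass. Its adjusted p was then 0.171 without control replicate 2, 0.218 without control replicate 3, 0.160 without MFAP5 replicate 1, 0.125 without MFAP5 replicate 3, 0.166 with the spike-in level in the model, and at most 0.262, with the unmoderated statistic.

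Of the 6 Nr4a2 probe sets 1 rose, 1447863_s_at, by 1.59 ± 0.31 (adjusted p = 0.0318). Its signal was -0.36, -0.51 and -0.40 in the controls against 1.37, 0.36 and 1.77 with MFAP5. This call was lost in 7 of 13 alternatives: without control replicate 2 (adjusted p = 0.138), control replicate 3 (0.137), MFAP5 replicate 1 (0.102) or MFAP5 replicate 3 (0.0630), with a variance trend (0.280), with the spike-in level in the model (0.106) and with the unmoderated statistic (0.281). Its difference stayed between 1.29 and 1.99. The ending _s_at marks probe sets that can match more than 1 transcript. The probe sets 1455034_at and 1450750_a_at had differences of 1.63 ± 0.41 and 1.11 ± 0.30 and did not pass (adjusted p = 0.0768 and 0.0907). On both, MFAP5 replicate 2 was the lowest MFAP5 array, at 0.056 and 0.095, and replicates 1 and 3 lay between 0.97 and 1.69. Without replicate 2 both passed, at 2.12 and 1.47 (adjusted p = 0.0114 and 0.0117), and 1455034_at also passed without control replicate 1 (1.89, adjusted p = 0.0380). The probe set 1450749_a_at differed by 0.45 and did not overlap between groups. The remaining pair, 1433423_at and 1433422_at, overlapped between the groups, at differences of 0.31 and -0.24. The gene difference of 0.81 is thus an average of 4 probe sets between 0.45 and 1.63 with this lower pair.

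Nr4a3, also called Nor1 and induced with its paralogs in many cell types, did not pass the test. Its gene value was 0.064, 0.22 and 0.0054 in the controls against -0.53, 0.38 and -0.098 with MFAP5. MFAP5 replicates 1 and 2 were the lowest and the highest of the 6 arrays. The difference was -0.18 (95% interval -0.65 to 0.29; adjusted p = 0.654). The spread came from 1 probe set, 1438796_at, which stood at -1.49, 1.40 and 0.017 in MFAP5 replicates 1, 2 and 3 and at -0.34, 0.44 and -0.017 in the controls. The other two, 1421080_at and 1421079_at, were lower in all MFAP5 arrays than in any control array, by means of -0.30 and -0.18, and neither passed (adjusted p = 0.250 and 0.464). Within arrays, Nr4a1 minus Nr4a3 stood at -0.50, -0.68 and -0.59 in the controls and at 2.00, 0.054 and 2.11 with MFAP5 (exact permutation test, two-sided, p = 0.1, the smallest possible; adjusted p = 0.143 over the 10 pairs). Nr4a2 minus Nr4a3 overlapped between the groups, since MFAP5 replicate 2 stood at -0.26 among controls from -0.43 to -0.23 (exact p = 0.2).

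**Figure D3:**
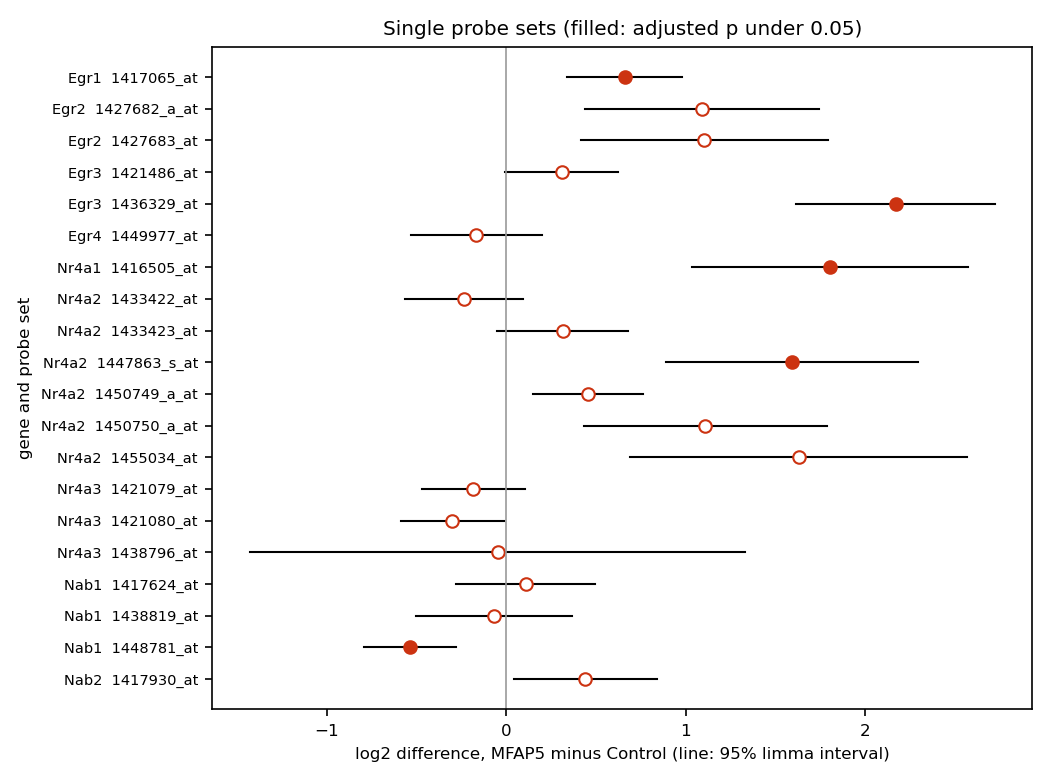
Log2 difference between the MFAP5 and control arrays (x axis) for each of the 20 probe sets (y axis), with its 95% limma interval; filled points passed at an adjusted p under 0.05. The 4 filled points on the right are 1 probe set each of Egr1, Egr3, Nr4a1 and Nr4a2, and the filled point on the left is 1 of the 3 Nab1 probe sets.

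The corepressor genes did not pass as genes. Nab2, the EGR-induced member, had signals of -0.59, -0.048 and -0.16 in the controls against 0.048, 0.41 and 0.066 with MFAP5. The groups did not overlap, by a margin of 0.096, and control replicate 1 was far below the rest. Its difference of 0.44 ± 0.17 did not pass (adjusted p = 0.199), and without control replicate 1 it was 0.28. Nab1, the more constantly expressed member, had gene values of 0.18, -0.013 and 0.090 in the controls against -0.14, -0.12 and 0.021 with MFAP5, a difference of -0.17 (95% interval -0.40 to 0.070; adjusted p = 0.408).

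The 3 probe sets of Nab1 went different ways. The probe set 1448781_at fell by 0.54 on the log2 scale (SE 0.11, n = 3 per group; adjusted p = 0.0412), from 0.20, 0.22 and 0.32 in the controls to -0.20, -0.31 and -0.36 with MFAP5. Its spread within each group was small, with SDs of 0.065 and 0.082. It missed the threshold without control replicate 2 (adjusted p = 0.130) or 3 (0.177), or without MFAP5 replicate 1 (0.0897), 2 (0.117) or 3 (0.128), while its difference stayed between -0.58 and -0.50. The other two, 1417624_at and 1438819_at, had differences of 0.11 and -0.067 and overlapped between the groups. A fold for Nab1 as a gene therefore depends on which probe set is read.

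The arrays did not rank the genes alike. MFAP5 replicate 2 was the lowest MFAP5 array for Egr1, Egr2, Nr4a1 and Nr4a2 and the highest for Egr3, Nr4a3 and Nab2. It was thus the lowest MFAP5 array for 4 of the 9 genes, and over all 18193 genes in 25.9%. Over the 20 probe sets it was the lowest in 11. MFAP5 replicate 3 was the highest for 6 of the 9 genes and the lowest for none. Over all 18193 genes it was the highest MFAP5 array in 6347 and the lowest in 33.2%. Among the controls, replicate 1 was the highest for 6 of the 9 genes and the lowest for 2. Over all 18193 genes it was the highest control in 4828 and the lowest in 55.3%. The genes that rose were thus largest in different MFAP5 arrays, Egr3 in replicate 2 and Egr1 and Nr4a1 in replicate 3.

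**Figure D4:**
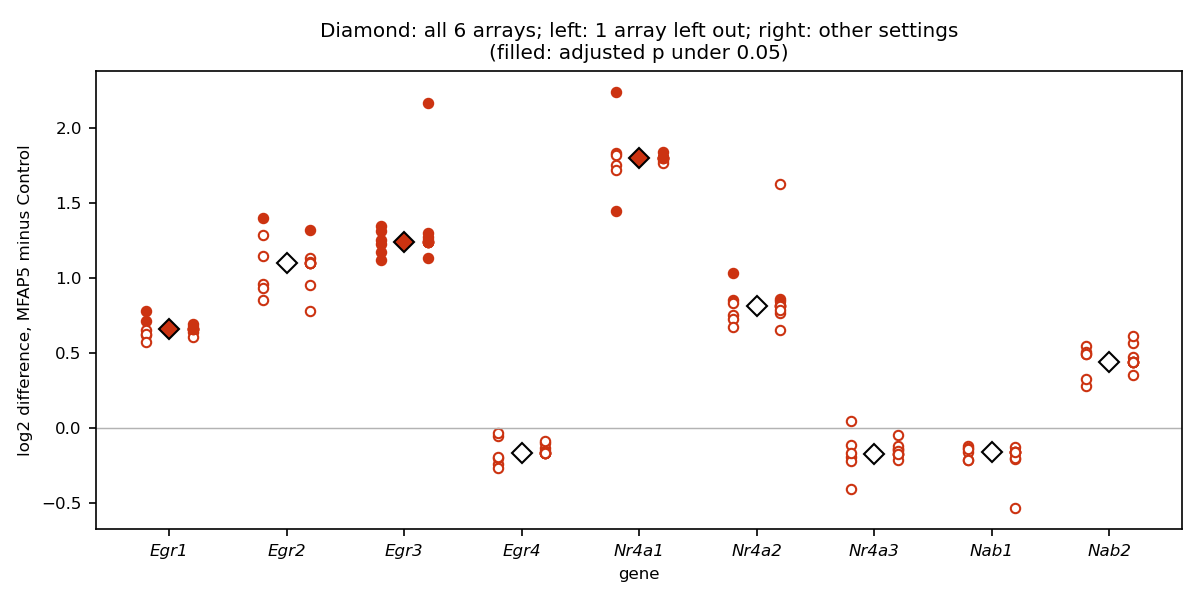
Log2 difference (y axis) of each gene (x axis) with all 6 arrays (diamond), with 1 array left out (circles to the left) and under 10 other settings (circles to the right); filled symbols have an adjusted p under 0.05. The Egr3 symbols are filled but for the unmoderated statistic, those of Egr1 and Nr4a1 are filled in part, and those of Egr4, Nr4a3, Nab1 and Nab2 are open throughout.

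Genes around the 2 families were counted in lists. Of 26 other immediate early genes 10 rose and none fell, with a median difference of 0.59 (background 0.759% higher, median -0.079). The 4 with the smallest p were Klf6, a Kruppel-like factor, at 0.98 ± 0.14, Ier3 at 0.69 ± 0.10, the ERK phosphatase gene Dusp5 at 1.24 ± 0.18 and the MAP kinase phosphatase gene Dusp1 at 0.90 ± 0.13 (SE, n = 3 per group; adjusted p from 0.00724 to 0.00928). Dusp5 stood at -0.57, -0.70 and -0.37 in the controls and at 0.37, 0.64 and 1.08 with MFAP5. Without control replicate 2 or 3, 2 of the 26 passed, and 5 did when the spike-in level entered the model. Without MFAP5 replicate 1, 6 passed. Over all genes the number called higher, 138 with all arrays, was 16 and 14 without control replicate 2 or 3. It was 48 with the spike-in level in the model and 68 without MFAP5 replicate 1.

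Genes of upstream regulators and partners were counted as well, and the activity of their proteins was not measured. Over all genes limma called 0.759% higher and 2.79% lower, so 0 calls in lists this short say little. Of 11 measured genes for SRF, ternary complex factors and the ERK cascade limma called 0, and 2 had an unadjusted p under 0.05, which 19.7% of all genes had. Of 17 for CREB, NFAT, calcineurin and MEF2 it called 0, and 4 had an unadjusted p under 0.05. Of 12 genes for RXR partners and corepressor subunits it called 0, with 3 at an unadjusted p under 0.05. The list medians were 0.0076, 0.080 and 0.11. The share of 19.7% covers either direction. By direction, 1, 4 and 2 of these genes were higher and 1, 0 and 1 lower. In the 3 lists 1, 4 and 2 genes lay above the controls without overlap, as did 6.51% of all genes. Below them lay 2, 1 and 3, as did 17.8% of all genes. Positive differences numbered 6, 13 and 8, and 6258 over all 18193 genes. Without control replicate 1 the numbers called higher were 0, 2 and 4, and 760 over all 18193 genes. Of the 12 partner and corepressor genes 1 was called lower in 6 of 16 alternatives: without control replicate 1, with quantile normalization, a variance trend, array weights or the replicate block, and without probe sets ending in _x_at or _s_at. With all arrays the smallest p of this list was that of Rxrg, the retinoid X receptor gamma gene, at -0.77 ± 0.17 (adjusted p = 0.0511).

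Among 14 measured genes known as EGR1 targets in the vessel wall, 0 were called higher and 1 lower, and the median was -0.021. Over all genes 0.759% were called higher and 2.79% lower, so 0 higher in a list this short says little. Those with an unadjusted p under 0.05 numbered 4, 2 higher and 2 lower, against 19.7% of all genes in either direction. With array weights 3 of the list were called higher and 2 lower, as were 1125 and 2879 of all 18193 genes. The gene called lower with all arrays was Ptges, the inducible prostaglandin E synthase, at -0.78 ± 0.12 (adjusted p = 0.0123). Ptges stood at 0.23, 0.51 and 0.50 in the controls and at -0.20, -0.49 and -0.40 with MFAP5, lower in each MFAP5 array than in any control array. No call was made on this list without control replicate 2 or 3. Without control replicate 1, 1 gene was higher, and without MFAP5 replicate 3, 2 were lower.

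Among all other genes, those nearest to the mean profile of the 4 Egr genes over the 6 arrays, by root mean square difference, were Ahctf1 (0.055), the prostaglandin receptor gene Ptger4 (0.071), Smchd1 (0.073), Slfn1 (0.073) and Herc4 (0.079). Ahctf1 stood at -0.14, -0.48 and -0.42 in the controls and at 0.15, 0.30 and 0.50 with MFAP5, beside Egr means of -0.19, -0.48, -0.48, 0.21, 0.21 and 0.55 in the same order. Nearest to the mean of the 3 Nr4a genes were Nfe2l2, which encodes the oxidative stress factor NRF2 (0.083), the interferon-induced Usp18 (0.13), Ier2 (0.13), H2-T24 (0.14) and the autophagy receptor gene Sqstm1 (0.14). Nfe2l2 shared with Nr4a1 and Nr4a2 the low value of MFAP5 replicate 2: it stood at 0.54, 0.25 and 0.82 with MFAP5 and at -0.023, -0.20 and -0.26 in the controls. These are likenesses over 6 arrays that fall into 2 groups.

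Other lists moved with the same arrays. Over all genes 2.79% were called lower and 0.759% higher, and 6.51% lay above the controls without overlap and 17.8% below. Of 9 measured adipocyte markers 8 fell, and the list medians were 1.15 to 1.35 in the controls against -1.77 to -0.97 with MFAP5. Of 9 neutrophil markers 4 fell, S100a8, S100a9, Mmp8 and Mmp9, with medians of 0.18 to 0.53 and -0.41 to -0.014. Of 12 macrophage markers 1 fell, Marco, and the median difference of the list was -0.043. In that list 5 had a positive difference and 7 a negative one, and 3 lay above the controls without overlap and 2 below. Of 10 fibroblast markers 1 fell, Pi16, but 8 had a positive difference, the median difference was 0.27, and 3 lay above the controls without overlap, the matrix genes Dcn and Col1a2 and the surface marker gene Thy1, none of which passed. These 9 marker genes were named after their values were seen. No gene was called among 14 endothelial, 10 lymphocyte, 8 mesothelial and 10 pericyte and muscle markers. In these lists 3, 0, 1 and 2 had an unadjusted p under 0.05, as had 19.7% of all genes, and the 3 endothelial ones were lower with MFAP5. Negative differences numbered 11, 8, 6 and 7, and 11935 over all 18193 genes. Below the controls without overlap lay 3, 2, 2 and 1, and above them 0 in each list. The endothelial medians were -0.059 to 0.20 in the controls against -0.15 to -0.027 with MFAP5. How much of the RNA came from cells other than endothelial cells was not tested. Of 12 heat shock genes, which respond to handling of cells, 1 rose, Hspa1b, by 1.45 ± 0.19 (adjusted p = 0.00520). In this list 10 had a positive difference and 2 a negative one, and 5 lay above the controls without overlap and 2 below. An unadjusted p under 0.05 was reached by 7 of the 12, 6 higher and 1 lower, against 19.7% of all genes. Hspa1b has a near-identical neighbour, Hspa1a, and their signals may be shared. The heat shock medians were -0.23 to -0.095 in the controls against 0.052 to 0.13 with MFAP5. Without control replicate 1, 4 of the 12 heat shock genes were called higher, as were 760 of all 18193 genes. The 3' minus 5' signal of beta-actin, a sign of RNA integrity, was -0.053 to -0.0048 in the controls against 0.036 to 0.14 with MFAP5 (exact permutation test, two-sided, p = 0.1), while that of Gapdh overlapped (p = 0.4). The part of these lists and of RNA quality in the values of the Egr, Nr4a and Nab genes was not tested.

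**Figure D5:**
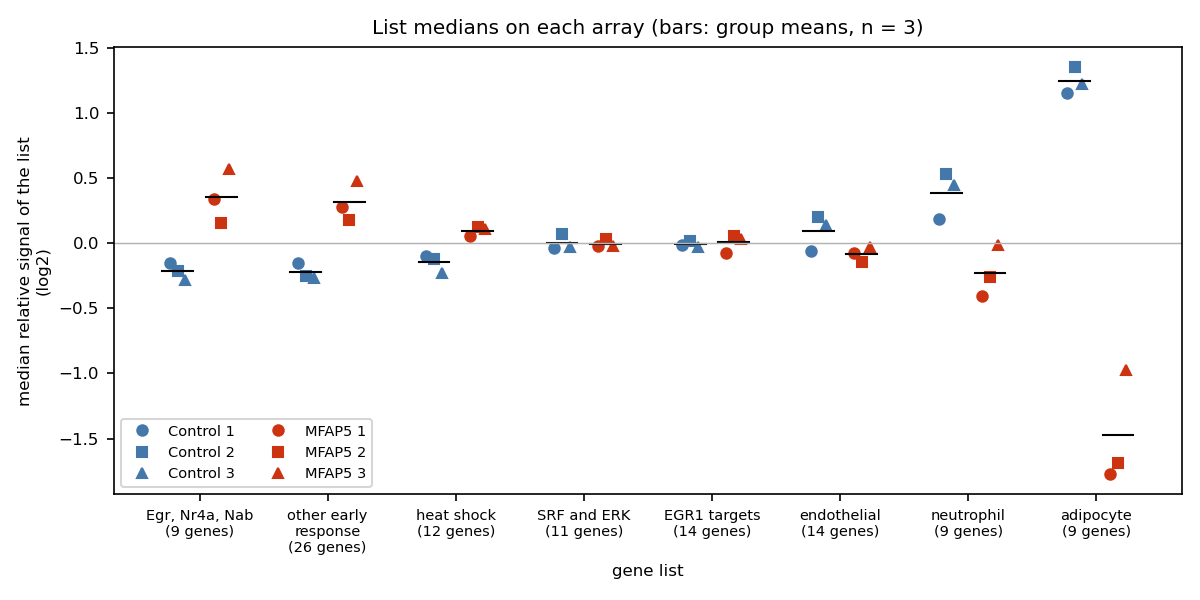
Median relative log2 signal (y axis) of 8 gene lists (x axis) on each control array (blue) and MFAP5 array (red), with group means as bars. The 9 Egr, Nr4a and Nab genes, the 26 other early response genes and the 12 heat shock genes have higher medians in each MFAP5 array than in any control array, and the 9 adipocyte markers and 9 neutrophil markers have lower ones.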

How the data were processed

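Total RNA of 3 control and 3 MFAP5 samples was labelled with biotin and measured on Affymetrix mouse expression arrays, 1 per sample, per the labels' protocols. The authors deposited log2 values, as read from the data: the median of each probe set over the 6 arrays was 0 to within 5e-07 and the widest range was 8.24. MAS5 is named in the submitters' processing notes; scaling and log base are not given in the sources read for this work.

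The 64 control probe sets were left out. Of 45037 others, 34945 had 1 gene symbol, 932 several and 9160 were not listed in the platform annotation. Symbols were checked by Entrez identifier against RefSeq (34741 found). Groups were compared with limma 3.58.1 in R 4.3.3 (lmFit, then eBayes with no trend; two-sided; adjusted by Benjamini-Hochberg over all probe sets or all 18193 genes; threshold 0.05). Tested on simulated data, it recovered 38 of 50 planted log2 shifts of 1 and 8 of 50 of 0.5, with 4 false calls among 145.

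The members, lists (182 of 199 genes measured) and tests were chosen with earlier results of these data known. Named were all 9 members, up to 4 called genes a list, and the 5 genes nearest each family mean. Rxrg, Dcn, Col1a2, Thy1 and Hspa1a, which were not called, were named as well. Same-numbered samples had deviations that correlated at 0.055 to 0.21, and the labels tie numbers to nothing, so no pairing was used. Alternatives were other normalizations, variance models, gene summaries and samples left out.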

Additional observations from a re-analysis of the deposited data

How the results depend on the processing

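The number of the 9 genes called higher by limma, 3 as reported, was 5 with array weights, 1 with spike-in level as covariate and 0 with the unmoderated statistic, and ran from 1 to 5 when each array was left out in turn. It was 2 to 4 under the other settings, and the number called lower was 0 throughout. The number of the 20 probe sets called higher, 4 as reported, was 8 with array weights, 2 with a variance trend, 1 with the spike-in covariate and 0 with the unmoderated statistic, and ran from 1 to 7 with an array left out. The number called lower, 1 as reported, was 0 with the replicate block, the spike-in covariate and the unmoderated statistic, and 0 to 1 with an array left out. With the unmoderated statistic 4 of the 9 genes were higher at an unadjusted p under 0.05, as were 3.99% of all genes, and 7 of the 20 probe sets were higher and 2 lower, against 5.43% and 8.85% of all probe sets. The cause of these changes was not tested.

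With the replicate block 3 genes and 6 probe sets of the 20 were higher, against 3 and 4 without it. Same-numbered samples share only a number, and control replicate 2 did not correlate best with MFAP5 replicate 2. Over all genes, array weights called 1125 higher and 2879 lower, and leaving out control replicate 1 called 760 and 1914. Whether the larger counts of Egr and Nr4a genes in these settings follow from the counts over all genes was not tested. Reading each gene by its probe set of largest SD gave 2.17 for Egr3, 1.63 for Nr4a2 and -0.54 for Nab1, and Egr1 then missed the threshold (adjusted p = 0.0529). With the unmoderated statistic no gene passed, with adjusted p of 0.105 for Egr3, 0.195 for Egr1 and 0.240 for Nr4a1. The difference kept its sign in each setting for Egr1, Egr2, Egr3, Egr4, Nr4a1, Nr4a2, Nab1 and Nab2. Nr4a3 ran from -0.41 to 0.045 with an array left out. Its probe set 1438796_at was 0.050 with quantile normalization, 0.17 with the spike-in covariate and -0.76 to 0.68 with an array left out. The Nab1 probe set 1417624_at was -0.092 with the spike-in covariate, and 1438819_at ran from -0.26 to 0.12 with an array left out. Without a signal level, no limit from dim probe sets could be set.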
